A study of Mus musculus with 2 samples.

Results

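The death receptor signalling genes examined here are 10 genes chosen by name for their role, out of 21887 protein-coding genes on chromosomes 1 to 19, X and Y. They encode the receptors FAS, TNFRSF1A and TNFRSF10B, the ligand FASL, the adaptors FADD and TRADD, the inhibitor CFLAR, and the kinases RIPK1, RIPK3 and DAPK1. DPPA2, a DNA-binding protein of pluripotent cells, was mapped in the mouse embryonic stem cell line R1/E by ChIP-seq, the sequencing of DNA fragments that an antibody to DPPA2 pulls down with the protein. Cells that carried both wild-type p53 alleles (p53+/+) were given adriamycin for 8 h (1 library) or left untreated (1 library). Adriamycin, or doxorubicin, is a topoisomerase poison that breaks DNA. All cells were grown on gelatin with serum and leukemia inhibitory factor, and the comparison is meant to locate DPPA2 after DNA damage. Each group is a single library (n = 1), so no difference below was tested, and all of them are between 2 libraries. Peak lists hold no expression values, so the labelled cell type was not checked against marker genes.

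A peak was assigned to a gene by its summit, its highest position. It was called a gene-end peak when the summit lay within 1 kb of either end of the gene, an inside peak when it lay further inside, and an outside peak when it lay up to 50 kb beyond an end. By this rule 10 of the 16229 adriamycin peaks and 7 of the 7043 untreated peaks belonged to the 10 genes. Positions are those of mm10. Folds are the authors' own, of each summit over the local background of its library. They are not scaled between libraries, so a difference in fold between the lists shows no change. The number of fragments stacked at a summit, the pileup, was recovered from each fold and its deposited p-value. The median pileup over all peaks was 14 in both lists (quartiles 11 and 17 with adriamycin, 12 and 18 untreated). The lowest called pileup was 6 with adriamycin and 7 untreated, and the genome-wide background was 1.03 fragments with adriamycin and 1.19 untreated. No input profile was used here, so a peak does not by itself show DPPA2 binding.

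Death receptors are members of the tumour necrosis factor (TNF) receptor family with an intracellular death domain. When a ligand such as FASL clusters its receptor, the adaptor FADD is recruited and activates caspase-8, and CFLAR restrains that step. TNFRSF1A works through TRADD and the kinase RIPK1, from which signalling can lead to survival, to apoptosis or, through RIPK3, to necroptosis. Fas and Tnfrsf10b (DR5) are known targets of p53, which DNA damage activates. DPPA2, with its partner DPPA4, is known for binding CpG-rich promoters in embryonic stem cells.

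The sequences upstream of the start sites are shown first for the genes with a peak there. RefSeq (GRCm38.p6, the mm10 build) gave promoter sequence for 8 of the 10 genes. Of these, the 250 bases before a start site are printed for 5 genes, 5′ to 3′. In the first set capitals mark the bases under the adriamycin peak. Dapk1 is shown because its adriamycin summit lay 54 bp before the annotated start, and Ripk1, with 2 annotated starts, because a peak was called there in both lists. The windows are chr13:60601961-60602210 for Dapk1, chr13:34002113-34002362 for the first Ripk1 start and chr13:34002624-34002873 for the second, all on the plus strand. The gene spans used to place peaks begin before these starts, at 60601723 for Dapk1 and 34002225 for Ripk1. The Dapk1 window and the second Ripk1 window therefore lie inside the spans. By its span the Dapk1 summit lay inside the gene, 434 bp from the lower-coordinate end.
Dapk1: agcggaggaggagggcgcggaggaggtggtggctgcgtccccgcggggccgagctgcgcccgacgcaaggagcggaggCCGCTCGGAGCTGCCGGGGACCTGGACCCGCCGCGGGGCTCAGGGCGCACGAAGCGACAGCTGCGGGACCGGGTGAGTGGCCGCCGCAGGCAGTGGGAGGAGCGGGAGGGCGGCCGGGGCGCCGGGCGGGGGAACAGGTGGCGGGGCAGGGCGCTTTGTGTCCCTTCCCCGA
Ripk1 start 1: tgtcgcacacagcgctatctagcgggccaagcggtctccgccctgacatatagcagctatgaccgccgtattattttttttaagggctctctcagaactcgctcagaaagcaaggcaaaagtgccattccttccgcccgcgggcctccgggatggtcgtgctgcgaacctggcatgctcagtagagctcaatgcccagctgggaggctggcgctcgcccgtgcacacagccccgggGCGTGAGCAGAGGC
Ripk1 start 2: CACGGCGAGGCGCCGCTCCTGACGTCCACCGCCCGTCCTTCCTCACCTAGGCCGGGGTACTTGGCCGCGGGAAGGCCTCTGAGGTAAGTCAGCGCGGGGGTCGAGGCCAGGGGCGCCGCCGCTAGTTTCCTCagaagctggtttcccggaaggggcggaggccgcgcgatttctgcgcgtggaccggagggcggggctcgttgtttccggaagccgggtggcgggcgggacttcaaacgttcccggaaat

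The second set shows genes set beside them. Fasl had a peak in the untreated list past its start, outside the printed bases. Fadd resembles the first Ripk1 start in base composition and had no peak at its ends, and Fas is the receptor gene farthest from any peak. Here capitals mark the GC box GGGCGG or its reverse complement. The windows are chr1:161788496-161788745 (minus strand) for Fasl, chr7:144582442-144582691 (minus strand) for Fadd and chr19:34290409-34290658 (plus strand) for Fas.
Fasl: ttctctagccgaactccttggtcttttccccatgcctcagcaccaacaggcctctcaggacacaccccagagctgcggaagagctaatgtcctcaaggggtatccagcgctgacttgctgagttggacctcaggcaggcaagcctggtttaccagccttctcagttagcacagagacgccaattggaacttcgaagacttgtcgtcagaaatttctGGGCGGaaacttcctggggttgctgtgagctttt
Fadd: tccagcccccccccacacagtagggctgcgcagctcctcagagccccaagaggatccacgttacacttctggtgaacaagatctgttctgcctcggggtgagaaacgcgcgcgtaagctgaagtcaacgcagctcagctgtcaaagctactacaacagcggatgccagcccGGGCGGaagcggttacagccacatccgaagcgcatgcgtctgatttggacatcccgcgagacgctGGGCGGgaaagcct
Fas: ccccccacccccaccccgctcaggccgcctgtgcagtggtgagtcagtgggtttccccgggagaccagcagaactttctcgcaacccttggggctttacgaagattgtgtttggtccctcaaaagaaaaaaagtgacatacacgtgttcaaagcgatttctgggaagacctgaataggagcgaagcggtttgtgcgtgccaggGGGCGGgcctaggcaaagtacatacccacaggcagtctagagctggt

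Most of the 10 genes had no DPPA2 peak at an end in either library. Gene-end peaks were called at Ripk1 and Dapk1 in the adriamycin list, and at Ripk1 and Fasl in the untreated list. This is 2 of 10 genes each time (20.0%). By the same rule 16.0% of all protein-coding genes were called with adriamycin and 5.78% untreated. The 10 genes were chosen by name and are few, so whether these shares differ was not tested. In both lists were 1 of the 10 genes (Ripk1) and 4.51% of all genes, in the adriamycin list alone 1 of 10 (Dapk1) and 11.5%, and in the untreated list alone 1 of 10 (Fasl) and 1.27%. The other 7 genes had a gene-end peak in neither list, as had 82.7% of all genes. Inside a gene, over 1 kb from its ends, summits were called in 0 of 10 genes with adriamycin (17.9% of all genes) and in 1 of 10 untreated (8.16%).

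**Figure D1:**
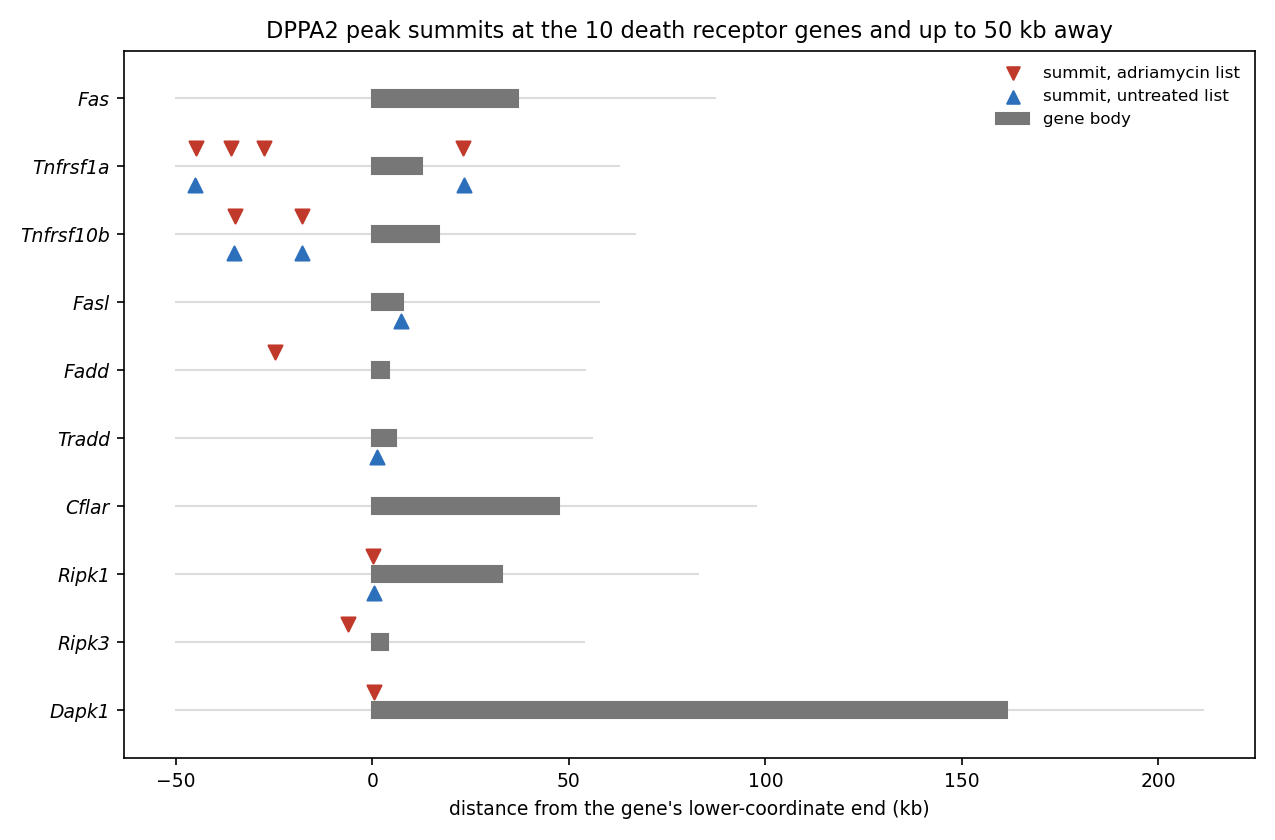
Positions of DPPA2 peak summits around the 10 death receptor genes, in kb from each gene's lower-coordinate end. Grey boxes are gene bodies, thin lines the 50 kb searched on each side, red triangles above the line summits of the adriamycin list and blue triangles below it summits of the untreated list. Summits touch an end of Ripk1 in both lists, of Dapk1 in the adriamycin list and of Fasl in the untreated list.

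Among the receptor genes no peak was called at an end or inside in either list. Fas (chromosome 19, 34290647 to 34327775), the receptor of FASL, had none within 50 kb. The nearest summits lay 265067 bp away in the adriamycin list and 550918 bp away in the untreated list. Of all protein-coding genes, 31.1% likewise had no peak within that reach in either list.

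Tnfrsf1a (chromosome 6, 125349723 to 125362483), which encodes the main TNF receptor of apoptosis signalling, had 4 outside peaks with adriamycin and 2 untreated. Its nearest lay beyond the higher-coordinate end, 10294 bp away with 18 fragments (exact Poisson 95% interval 10.7 to 28.4) in the adriamycin list and 10597 bp away with 16 fragments (9.15 to 26.0) in the untreated list. Both summits lay inside Plekhg6, in the lncRNA gene Gm52918. The strongest of the member peaks in either list lay 44925 bp below Tnfrsf1a with adriamycin, with 24 fragments (15.4 to 35.7) and a fold of 7.18. Its untreated counterpart, 45015 bp away, had 16 fragments (9.15 to 26.0) and a fold of 5.25. Both intervals overlap. The remaining adriamycin peaks, with 14 and 11 fragments, had no untreated counterpart. One of them lay 133 bp from the start of Ltbr and 519 bp from an end of the sodium channel gene Scnn1a. The other lay inside Scnn1a.

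Tnfrsf10b (chromosome 14, 69767472 to 69784411) encodes the receptor of the death ligand TRAIL. It had 2 outside peaks in each list, all below its lower-coordinate end. The nearer lay 17992 bp away with 15 fragments (8.40 to 24.7) in the adriamycin list and 17964 bp away with 9 fragments (4.12 to 17.1) in the untreated list, inside the lncRNA gene 4930480K23Rik. The farther lay 35013 bp away with 18 fragments (10.7 to 28.4) with adriamycin and 35160 bp away with 13 fragments (6.92 to 22.2) untreated. Those summits were 111 bp and 258 bp from an end of Chmp7, which encodes a membrane-remodelling ESCRT protein.

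The ligand gene Fasl (chromosome 1, 161780691 to 161788495) had no peak within 50 kb with adriamycin and a gene-end peak untreated. The untreated peak, at 161788003 to 161788202, lay inside the gene, with its summit 439 bp past the start. It had 15 fragments (8.40 to 24.7), a fold of 5.00 and a −log10 q of 5.04, and its fold ranked at the 43.1 percentile of the untreated list. In the adriamycin list the nearest summit lay 170206 bp away. The adriamycin list reached down to weaker peaks (smallest −log10 p 3.83 with adriamycin and 4.18 untreated), and the Fasl peak's −log10 p was 8.74. Adriamycin signal at that place, where no peak was called, was not measured, so a difference at Fasl was not tested.

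The adaptor genes differed in which list held their peak. Fadd (chromosome 7, 144578323 to 144582441), whose product links FAS to caspase-8, had 1 outside peak in the adriamycin list, 24725 bp below its lower-coordinate end, with 19 fragments (11.4 to 29.7) and a fold of 7.04. That summit was 131 bp from the start of Ppfia1, a liprin gene. No untreated peak lay within 50 kb of Fadd, and the nearest was 128513 bp away. Tradd (chromosome 8, 105258575 to 105264594), whose product binds TNFRSF1A, had an inside peak in the untreated list at 105259558 to 105259881. Its summit lay 1181 bp from the lower-coordinate end, the first beyond the 1 kb limit, where Fasl at 439 bp was the last inside it. The Tradd peak had 13 fragments (6.92 to 22.2) and a fold of 3.54, at the 2.35 percentile of its list and the lowest of the 17 member peaks. In the adriamycin list the nearest summit to Tradd lay 87276 bp away.

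Cflar (chromosome 1, 58711311 to 58758884), which encodes the caspase-8 inhibitor c-FLIP, had no peak in reach in either list. Its nearest summits, 58766 bp away in the adriamycin list and 58835 bp away in the untreated list, were the first beyond the 50 kb limit, and the 45015 bp of Tnfrsf1a was the last inside it. They lay inside the neighbouring Casp8, the gene of the caspase that CFLAR restrains. The Casp8 peak had 10 fragments (4.80 to 18.4) with adriamycin and 14 (7.65 to 23.5) untreated, with folds of 5.43 and 6.15 in that order.

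Ripk1 (chromosome 13, 34002225 to 34035170), the kinase downstream of TNFRSF1A, was the 1 gene of the 10 with a gene-end peak in both lists. The adriamycin peak, at 34002349 to 34002755, had 15 fragments (8.40 to 24.7), a fold of 5.80 and a −log10 q of 6.56. The untreated peak, at 34002485 to 34002744, had 12 fragments (6.20 to 21.0), a fold of 4.36 and a −log10 q of 3.32. The untreated peak lay wholly within the adriamycin one, and the fragment intervals overlap. The adriamycin summit lay 131 bp past the first printed start and the untreated summit 238 bp past it, between the 2 printed windows. Of the second window's bases, 132 were under the adriamycin peak and 121 under the untreated one. The serpin gene Serpinb6a overlaps the end of Ripk1 by 570 bp on the opposite strand, and its start lay 300 bp from the adriamycin summit and 193 bp from the untreated one. The peak is therefore at the starts of both genes, and these data do not assign it to one of them.

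Ripk3 (chromosome 14, 55784995 to 55788857), the kinase that activates MLKL in necroptosis, had 1 outside peak in the adriamycin list, 6238 bp below its lower-coordinate end. It had 13 fragments (6.92 to 22.2) and a fold of 4.14, and lay inside the adenylate cyclase gene Adcy4. In the untreated list the nearest summit was 268653 bp away.

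Dapk1 (chromosome 13, 60601723 to 60763191) encodes a calmodulin-regulated kinase with a death domain and is the longest of the 10 genes, at 161469 bp. Its adriamycin peak, at 60602039 to 60602238, had 12 fragments (6.20 to 21.0), a fold of 4.85 and a −log10 q of 4.32, and its fold ranked at the 40.4 percentile of the adriamycin list. Of the printed bases 172 were under this peak. The nearest untreated summit lay 159220 bp away. The rest of the gene held no peak in either list, whereas among protein-coding genes of 100 kb or longer 56.2% had an inside peak with adriamycin and 30.8% untreated. When adriamycin peaks were limited to a q no higher than 1e-05, to folds of 5 or more, or to as many of the strongest as the untreated list holds, Dapk1 was no longer called and Ripk1 was the 1 gene with a gene-end peak there, against 7.12%, 6.94% and 5.73% of all genes in that order. The first 2 of these limits, set on the untreated list, left Fasl as its 1 such gene, against 2.10% and 2.14% of all genes.

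**Figure D2:**
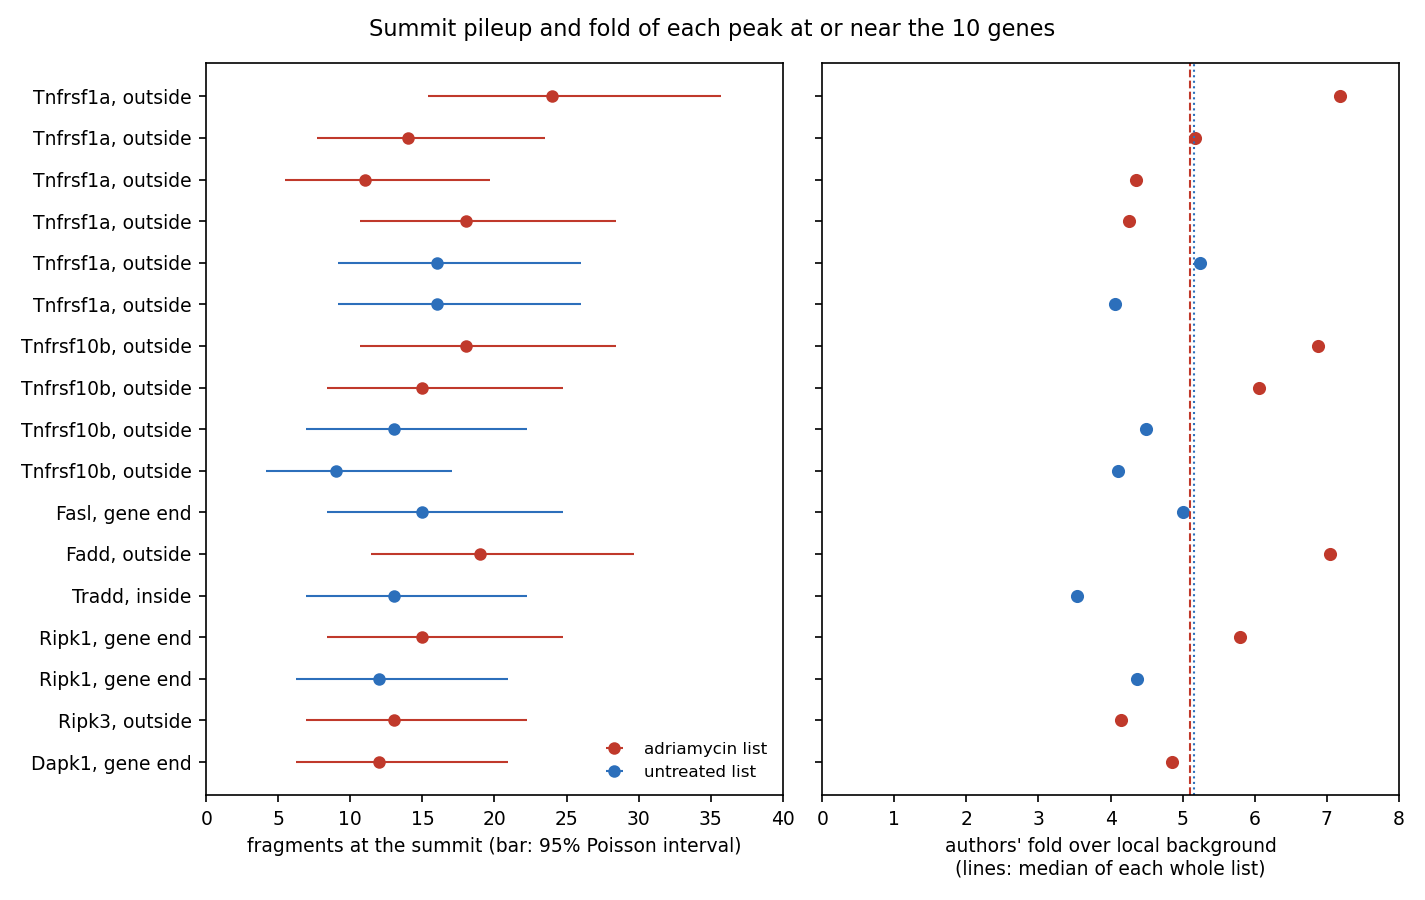
Each of the 17 peaks at or near the 10 genes, with fragments at the summit and exact Poisson 95% intervals on the left and the authors' fold on the right, red for the adriamycin list and blue for the untreated list. Dashed (adriamycin) and dotted (untreated) lines mark the median fold of each whole list, 5.10 and 5.16, and 6 of 10 adriamycin and 1 of 7 untreated peaks lie above their own line.

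Folds of the member peaks ran from 4.14 to 7.18 in the adriamycin list (median 5.48, against 5.10 over the whole list) and from 3.54 to 5.25 untreated (median 4.36, against 5.16). Pileups ran from 11 to 24 and from 9 to 16 fragments in that order. All 10 adriamycin peaks also passed the smallest −log10 p of the untreated list, as did 16160 of all 16229 adriamycin peaks. The untreated peaks pass the smallest −log10 p of the adriamycin list by construction, because that one is lower. Local background at these peaks reached at most 3.37 times the genome-wide value with adriamycin and 2.67 times untreated.

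Counting inside and outside peaks as well, 2 of 10 genes had a peak at an end or inside with adriamycin and 3 of 10 untreated, against 30.2% and 13.2% of all genes in that order. Within 50 kb, 6 of 10 genes had a peak with adriamycin, against 66.6% of all genes, and 5 of 10 had one untreated, against 36.4%. In both lists were 3 of 10 genes (34.1% of all genes), in the adriamycin list alone 3 (32.5%), and in the untreated list alone 2 (2.36%), Fasl and Tradd. Of protein-coding genes under 10 kb, as Fasl, Fadd, Tradd and Ripk3 are, 57.5% had a peak in that reach with adriamycin and 31.2% untreated. With a reach of 10 kb 3 of 10 genes had a peak with adriamycin, against 39.4% of all genes, and 3 of 10 untreated, against 17.7%. Of the 8 outside peaks in the adriamycin list 3 lay within 1 kb of an end of another protein-coding gene, as did 1 of 4 in the untreated list. Inside another gene of any type lay 7 of the 8 and 3 of the 4. The same shares over all peaks were not worked out, so these counts show nothing particular to the 10 genes.

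**Figure D3:**
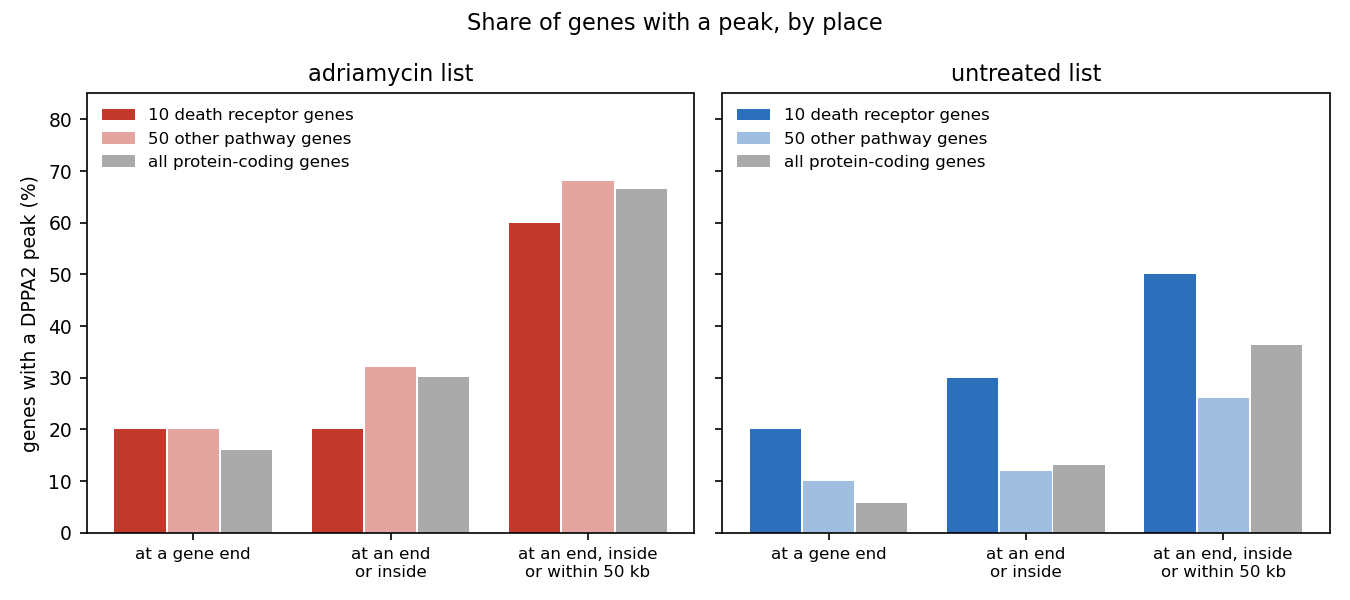
Share of genes with a DPPA2 peak, in percent, for the adriamycin list on the left and the untreated list on the right, by place of the summit. Dark bars are the 10 death receptor genes, pale bars 50 other genes of the pathway and grey bars all 21887 protein-coding genes; at gene ends the 10 genes stand at 20.0% in both lists, against 16.0% and 5.78% of all genes.

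Of the 10 adriamycin member peaks 5 overlapped an untreated peak (50.0%), as did 34.4% of all adriamycin peaks. Of the 7 untreated member peaks 5 overlapped an adriamycin one (71.4%), as did 79.7% of all untreated peaks. Scaled to each library's background, the adriamycin over untreated pileup ratio at Ripk1 was 1.45 (exact binomial 95% interval 0.634 to 3.39). At the peaks near Tnfrsf10b it was 1.93 (0.793 to 5.01) and 1.61 (0.744 to 3.57), and near Tnfrsf1a 1.74 (0.887 to 3.51) and 1.31 (0.628 to 2.74). All 5 intervals include 1, and all include 1.32, the median over 5574 shared peaks (quartiles 1.07 and 1.59). With 9 to 24 fragments per summit the intervals are wide, and a difference between the libraries at these 5 peaks was not tested. Intervals cover counting error only.

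**Figure D4:**
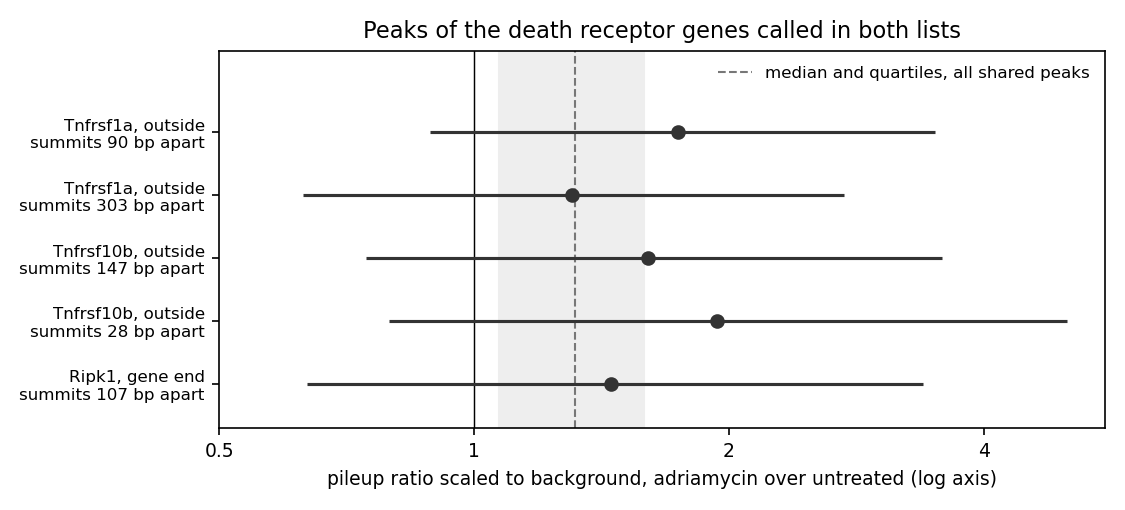
Pileup ratio, adriamycin over untreated, scaled to background on a log axis, for the 5 member peaks called in both lists. Bars are exact 95% intervals, the dashed line and grey band the median (1.32) and quartiles over all shared peaks, and the solid line equality; every bar crosses both lines.

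The upstream bases at Dapk1 and Ripk1 were rich in CpG. Over the 250 bases Dapk1 had 78.4% G + C and 33 CpG, and the second Ripk1 start 69.6% and 32 CpG. The first Ripk1 start had 60.8% and 19 CpG. Over all 21263 such windows of protein-coding genes the medians were 55.6% and 10 CpG. Windows with an adriamycin summit within 1 kb of the start had medians of 65.6% and 20 CpG, and those without one 54.0% and 8 CpG. In the untreated list the corresponding medians were 65.8% and 21 CpG with a summit, and 55.2% and 9 CpG without.

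Composition of these upstream bases varied among the genes with and without a peak near the start. Fadd, with no peak within 1 kb of its start in either list, had 60.4% G + C and 19 CpG, close to the first Ripk1 start. Of that Ripk1 window only 14 bases were under the adriamycin peak, and the bases at the Ripk1 summits were not measured. Whether composition goes with a peak at these genes was not tested. Fasl, whose untreated peak lay past the start and outside these bases, had 53.6% and 7 CpG. The composition of the bases under that peak was not measured. The remaining genes, without such a peak, ran from 42.8% and 7 CpG at Cflar to 56.4% and 11 CpG at Fas. The GC box, searched as GGGCGG on both strands, occurred 4 times before the second Ripk1 start and 2 times each before the first, Dapk1 and Fadd. Fas, Fasl and Ripk3 had 1 each and Tnfrsf1a and Cflar 0, and 42.6% of all windows held at least 1. At Dapk1 both lie among the capital letters, and at the second Ripk1 start 1 of 4 does. Searched in the same way, CCAAT matched 2 times at Fasl, in overlapping bases, and in 35.4% of all windows, and TATAAA matched 2 times at Cflar, also overlapping, and in 11.6%. A p53 half-site, searched as RRRCWWGYYY (R is A or G, W is A or T, Y is C or T), occurred 1 time, at Fasl, and in 6.31% of all windows. Only these upstream bases were searched. Tnfrsf10b and Tradd, without promoter sequence, and the rest of each gene, Fas included, were not. These matches describe the letters and are not binding sites.

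**Figure D5:**
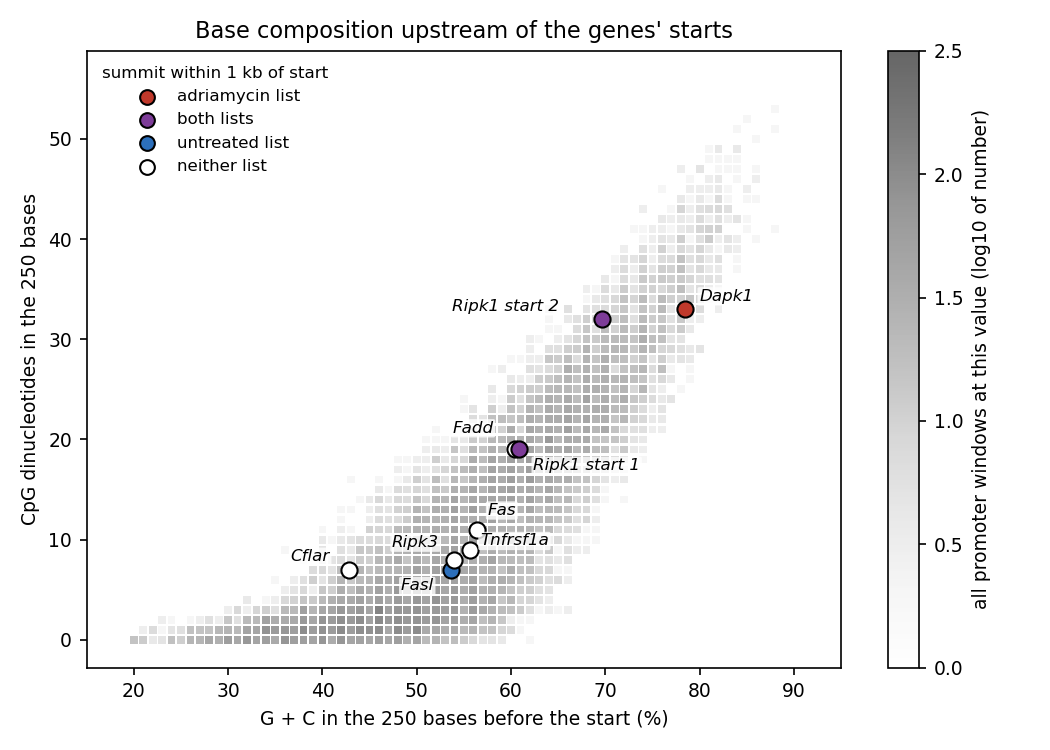
G + C content in percent against number of CpG dinucleotides in the 250 bases before each annotated start, with all 21263 windows in grey and 9 windows of 8 death receptor genes as circles. Red marks a summit within 1 kb of the start in the adriamycin list, purple in both, blue in the untreated list and white in neither; Dapk1 and the second Ripk1 start have the highest CpG counts of the 9, 33 and 32.

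The wider pathway was taken as 50 other genes, listed by role. A gene-end peak was called at 10 of them with adriamycin (20.0%, against 16.0% of all genes) and at 5 untreated (10.0%, against 5.78%). Kinases and their partners held 6 of the 10 adriamycin and 4 of the 5 untreated genes, out of 13 listed. Of 10 receptors only Ltbr, and of 4 ligands only Tnf, had one in the adriamycin list, and none did in the untreated list. The Ltbr peak is also counted above as an outside peak of Tnfrsf1a. It lies 519 bp from an end of Scnn1a as well, and these data do not assign it to one gene. None of 11 genes of ubiquitin signalling, such as Tnfaip3 and Cyld, had one in either list. Each role holds few genes, and whether roles differ from each other or from all genes was not tested.

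Called in both lists were Faf1, which encodes a FAS-associated factor, Map3k5, the stress kinase ASK1, Mapkapk2, a kinase of RIPK1, and Dapk3, of the DAPK1 family. Map3k5 had 25 fragments (16.2 to 36.9) and a fold of 7.39 with adriamycin, with its summit 39 bp from a start, and 16 (9.15 to 26.0) and 5.06 in the untreated list. Faf1 had 15 fragments (8.40 to 24.7) with adriamycin and 13 (6.92 to 22.2) untreated, 71 and 28 bp from its start in that order. At the start of Mapkapk2 the pileups were 14 and 12, and at its far end 12 with adriamycin and 25 untreated, where the intervals (6.20 to 21.0 and 16.2 to 36.9) overlap. At Dapk3 they were 19 with adriamycin and 16 untreated, at its far end, 8741 and 8856 bp from a start.

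In the adriamycin list alone were Tnf, Ltbr, Map3k7 (the kinase TAK1), Tab2 (its partner), Dapk2 and Bid, which encodes a BCL2-family protein cut by caspase-8. Dapk2, a further relative of Dapk1, had 15 fragments (8.40 to 24.7) at a summit 67 bp from its start. Under the q, fold and list-length limits given for Dapk1, Dapk2 was no longer called either, and Dapk3 was. Tab2 had 17 fragments (9.90 to 27.2) and a fold of 5.84, Bid 15 (8.40 to 24.7) and 4.76, and Tnf 11 (5.49 to 19.7) and 3.66. Map3k7 had the lowest values, 7 fragments (2.81 to 14.4) and a fold of 3.42, and its −log10 p of 4.10 was below any in the untreated list. In the untreated list alone was Tbk1, a kinase that acts on RIPK1, with 10 fragments (4.80 to 18.4) and a fold of 4.10. With adriamycin peaks limited to as many of the strongest as the untreated list holds, 4 of the 50 genes had one (Faf1, Tab2, Map3k5 and Dapk3), where 5.73% of all genes did. Untreated 5 of the 50 had one, where 5.78% of all genes did. Tab2 was then called in the adriamycin list alone, and Mapkapk2 and Tbk1 in the untreated list alone. Whether genes called in 1 list alone differ between the libraries was not tested.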

How the data were processed

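The submitters' processing notes list mm10 and the tools MACS3 3.0.0b1, Bowtie2 2.5.1, deepTools 3.5.1, SAMtools and FastQC 0.12.1. The peak calling command, filters and whether an input was used were not given in the sources used here. The deposited peak lists hold 1 library each. The deposited values per peak are the authors' fold (a ratio of summit over local background), −log10 p, −log10 q, a score (not used here) and the distance from peak start to summit, used as a position.

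Peaks on unplaced contigs (136 in the adriamycin list, 123 in the untreated list) and the mitochondrial genome (6 and 3 in that order) were left out. Groups came from the title (adriamycin) and the treatment label (untreated). Gene and start positions came from RefSeq tables of GRCm38.p6, where all 10 member and 50 of 50 pathway symbols matched. The gene table has no strand, so "gene end" means either end. Pileups were recovered as the whole number of fragments that gives both the deposited fold, with a pseudocount of 1, and −log10 p, within 0.001 (99.94% of adriamycin and 99.86% of untreated peaks). The lowest background recovered was taken as genome-wide. The scripts were tested on simulated data. Overlap meant at least 1 bp. Tools were scipy 1.17.1, pandas 2.3.3, numpy 2.4.6 and matplotlib 3.10.9 under Python 3.11.15.

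Members and lists were chosen with earlier results of these data known. All 10 members are named whatever their values, and of the other pathway genes each with a gene-end peak in either list. Casp8, other neighbours and genes with inside peaks were added after their values were seen.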

Additional observations from a re-analysis of the deposited data

How the results depend on the processing

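Counts with both lists limited to a q of at most 1e-05, and separately to a fold of at least 5, were these under each limit. Gene-end peaks were left at 1 of the 10 genes in each list (Ripk1 with adriamycin, Fasl untreated), where all genes stood at 7.12% with adriamycin and 2.10% untreated under the q limit, and at 6.94% and 2.14% in that order under the fold limit. Peaks at an end or inside were left at 1 gene in each list (all genes 15.9% and 6.14% under q, 15.5% and 6.25% under fold, each with adriamycin and untreated). The shared member peaks fell to 1, and the share of all peaks that overlap under these limits was not worked out. Genes within reach in the untreated list fell to 2 (all genes 18.5% under q and 18.9% under fold). Of the 50 other pathway genes 5 had a gene-end peak with adriamycin under either limit, and untreated 2 under the q limit and 3 under the fold limit, beside the same gene-end shares of all genes. With lists of equal length, 7043 peaks each, the adriamycin list had a gene-end peak at 1 member and at 4 other pathway genes, and an end or inside peak at 1 member, where all genes stood at 5.73% for gene ends and 13.4% for end or inside. Untreated, these shares were 5.78% and 13.2%. With a reach of 10 kb 3 members had a peak in each list, against 39.4% of all genes with adriamycin and 17.7% untreated. Each of these settings keeps fewer peaks or a shorter reach by construction. The other 33 planned values for counts stayed within 1.5 times, with window widths of 500 and 2500 bp, start sites only, any base of the peak, a reach of 100 kb and other overlap limits among them. So did 9 values at a common p limit, an alternative chosen after seeing the data. At that limit and at equal list length the untreated list is left uncut, so its counts there could not change. At the edge of the 1.5 times range, untreated members with a gene-end peak rose from 2 to 3 with the 2500 bp window. A wider window can only add genes, and the share of all genes at that width was not worked out. These members also rose to 3 with any base of the peak, which added Tradd, where 6.06% of all genes were called. Setting the median of all shared peaks to 1 gave pileup ratios of 0.993 to 1.47, all within their counting intervals. No replicate could be left out and no paired analysis was possible because each group has 1 library. Few fragments per summit limit what can be compared at a single peak.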

Other observations

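Several other pathway genes held peaks inside the gene, over 1 kb from its ends. In the adriamycin list 8 of the 50 did (16.0%, against 17.9% of all protein-coding genes), and in the untreated list 2 of the 50, against 8.16% of all genes. Both of the untreated genes, Casp8 and Map3k5, were also among the 8. Map3k5, which encodes a stress-activated kinase, had 2 inside peaks in each list. The first had 19 fragments (exact Poisson 95% interval 11.4 to 29.7) and a fold of 8.47 with adriamycin, and 8 (3.45 to 15.8) and 4.10 untreated. The second had 11 fragments (5.49 to 19.7) in each list. In the adriamycin list alone were Tnfsf15, a ligand gene, Ngfr and Edar, receptor genes with a death domain, Edaradd, the adaptor gene of EDAR, Rbck1, of the linear ubiquitin ligase, and Dapk2. Ngfr had 2 such peaks, with 18 (10.7 to 28.4) and 19 (11.4 to 29.7) fragments, Edar 1 with 11 (5.49 to 19.7), and Edaradd 1 with 16 (9.15 to 26.0).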
